A study of Homo sapiens with 9 samples.

Results

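The 49 genes described here belong to the interferon response and to antigen presentation. They were chosen by name as a list of known pathway members, with earlier results of these data known. Each matched exactly 1 of the 25593 loci in the expression tables. They fall into 13 genes of antigen presentation, 14 receptors, kinases, transcription factors and RNA sensors, and 22 effector genes that interferon is known to induce. Their RNA was measured by sequencing in 9 cultures of cells resembling neural crest, made from the established embryonic stem cell line H9 (human), in 3 groups of 3 cultures that the design text calls biological replicates.

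Group F_FSB was expanded for 4 passages with the growth factor FGF2 and SB431542, which inhibits the type I receptors of TGF-β, Activin and Nodal, and then for 3 more passages with FGF2 alone. Group FSB received FGF2 at 5 to 10 ng/ml with SB431542 at 3 to 5 µM throughout expansion. Group F was expanded with FGF2 alone. FGF2 was at 5 to 10 ng/ml in all 3 groups, and SB431542 was also at 3 to 5 µM in F_FSB before it was withdrawn. All 3 groups came from H9 clumps differentiated for 6 days with 10 µM SB431542, were sorted for high CD271 without CD73, grown on fibronectin under 5% oxygen and harvested at passage 6 to 7. The cell type label instead gives both sort markers as positive. All cultures come from 1 cell line, and cells from the start of expansion are not among the 9 libraries, so rose and fell compare groups and do not describe a change from the starting cells.

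Interferons bind receptor pairs, IFNAR1 with IFNAR2 for type I and IFNGR1 with IFNGR2 for type II. The receptors act through the kinases JAK1, TYK2 and JAK2 on STAT proteins. STAT2 and IRF9 belong to a complex that binds the interferon-stimulated response element (ISRE) in the promoters of effector genes. A different element, the gamma-activated site (GAS), mediates much of the response to type II interferon. Many class I presentation genes respond to the same factors and to the co-activator NLRC5. Class I molecules consist of an HLA chain and β2-microglobulin (B2M). They display peptides that the proteasome cuts, the TAP transporter moves into the endoplasmic reticulum and tapasin (TAPBP) helps to load.

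Expression was given as FPKM, a fragment abundance scaled by library size and transcript length, so levels of different genes are compared per length. Sums of FPKM ran from 361026 to 506146 per library. Fragment counts are not in these tables, so the depth is unknown and no counting error is given. HLA-F, B2M, TAP1, PSMB8, IFNGR2, JAK1, IRF1, IRF3 and IFIT3 overlap another listed locus, which makes their values less certain. The FSB libraries lay apart from the other 6 on the leading principal component, which held 52.9% of the variance. NGFR, which encodes the sort marker CD271, averaged 4.89 ± 3.01 FPKM in F_FSB, 120 ± 15.3 in FSB and 20.0 ± 20.4 in F (SD, n = 3 each). NT5E, which encodes CD73, averaged 63.0 ± 15.0 FPKM in F_FSB, 20.0 ± 9.37 in FSB and 72.9 ± 22.9 in F. SOX9, a factor required in cartilage and crest development, averaged 19.5 ± 7.76, 34.1 ± 10.9 and 32.5 ± 22.7 FPKM in F_FSB, FSB and F. Of 10 neural crest and ectomesenchyme markers 8 were tested. Of these, 3 were higher and 2 lower in FSB than in F, against 28.5% and 13.4% of all genes. In F_FSB against FSB, 1 was higher and 3 lower, against 13.7% and 28.2%. With 8 genes tested, these counts are not read as a result about the markers.

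Promoter sequences of 6 of the 49 genes show what the letters of these elements look like in genes that differed between the media and in genes that did not pass the test. Each window runs from 250 bases before to 50 bases after a transcription start in RefSeq (build GRCh38.p14) and is written 5′ to 3′ on the strand of its gene. Capitals mark the letters of an ISRE core, GAAA and GAAA with any 2 bases between them (TTTC and TTTC on the other strand), and those of a GAS, TTCNNNGAA. The windows are those of IFI44L (chr1:78620198-78620497, plus strand), PSMB8 (chr6:32843998-32844297, minus strand, the downstream one of its 2 listed starts), TAP1 (chr6:32853655-32853954, minus strand, the upstream one of its 2 listed starts) and BST2 (chr19:17405581-17405880, minus strand). These 4 genes fell in FSB. The other 2 windows, of ISG15 (chr1:1013247-1013546, plus strand) and IFIT5 (chr10:89414318-89414617, plus strand), belong to genes that did not pass. All 6 were picked among windows that hold ISRE letters.
IFI44L: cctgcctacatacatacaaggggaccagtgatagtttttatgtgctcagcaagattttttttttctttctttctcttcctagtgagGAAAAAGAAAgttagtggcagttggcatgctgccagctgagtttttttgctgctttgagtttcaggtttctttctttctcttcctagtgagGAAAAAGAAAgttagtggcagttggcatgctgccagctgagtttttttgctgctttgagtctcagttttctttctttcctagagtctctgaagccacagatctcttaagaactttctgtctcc
PSMB8: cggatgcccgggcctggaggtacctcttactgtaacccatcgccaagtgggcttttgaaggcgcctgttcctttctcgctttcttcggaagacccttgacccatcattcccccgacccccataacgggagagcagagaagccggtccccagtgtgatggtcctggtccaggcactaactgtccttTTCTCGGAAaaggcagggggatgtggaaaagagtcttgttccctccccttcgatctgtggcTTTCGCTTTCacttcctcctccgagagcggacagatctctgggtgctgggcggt
TAP1: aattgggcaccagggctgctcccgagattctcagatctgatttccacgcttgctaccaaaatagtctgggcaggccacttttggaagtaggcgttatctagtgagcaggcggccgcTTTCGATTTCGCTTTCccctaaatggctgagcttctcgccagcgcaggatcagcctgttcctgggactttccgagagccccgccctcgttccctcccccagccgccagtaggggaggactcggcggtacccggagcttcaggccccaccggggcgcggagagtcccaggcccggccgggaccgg
BST2: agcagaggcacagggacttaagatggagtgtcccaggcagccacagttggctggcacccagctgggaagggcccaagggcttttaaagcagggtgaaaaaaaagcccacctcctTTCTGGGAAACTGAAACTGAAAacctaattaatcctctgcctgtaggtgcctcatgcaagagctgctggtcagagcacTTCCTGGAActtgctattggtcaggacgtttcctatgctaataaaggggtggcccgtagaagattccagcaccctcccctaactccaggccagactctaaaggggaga
ISG15: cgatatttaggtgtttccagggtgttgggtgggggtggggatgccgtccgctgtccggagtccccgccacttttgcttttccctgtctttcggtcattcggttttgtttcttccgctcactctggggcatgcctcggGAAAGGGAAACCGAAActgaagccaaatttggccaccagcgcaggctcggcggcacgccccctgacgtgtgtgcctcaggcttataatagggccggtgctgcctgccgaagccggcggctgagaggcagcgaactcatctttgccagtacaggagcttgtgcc
IFIT5: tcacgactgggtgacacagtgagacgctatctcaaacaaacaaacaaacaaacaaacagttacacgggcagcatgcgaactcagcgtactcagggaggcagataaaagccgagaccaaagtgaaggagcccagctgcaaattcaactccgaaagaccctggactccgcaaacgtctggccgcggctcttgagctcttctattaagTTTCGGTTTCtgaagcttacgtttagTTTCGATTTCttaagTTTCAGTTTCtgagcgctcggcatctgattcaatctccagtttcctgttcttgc

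In the IFI44L window the letters GAAAAAGAAA stood at -164 and again at -73 from the start, within a stretch of sequence that is repeated. PSMB8 held ISRE letters across the start and GAS letters at -65. TAP1 and BST2 each held 2 overlapping ISRE matches, and in BST2 a GAS match at -136 overlapped them. ISG15 held 2 overlapping matches between -113 and -98, and IFIT5 held 3, at -45, -19 and -4. Of the 49 genes, 37 had 1 or more windows, with DDX58 listed in RefSeq under the symbol RIGI. ISRE letters were in a window of 21 of the 37, against 4.38% of the 27305 genes with a window (3.57% of all 35116 windows). GAS letters were in 10 of 37, against 9.38% of all genes, and 7.66% of windows. Letters of the Y box of class I promoters, CTGATTGG or CCAATCAG, were in those of HLA-B, HLA-C, HLA-F and B2M, against 4.75% of all genes, and 3.97% of windows. A match describes the letters in the window and does not show a bound site, and these shares were not tested.

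Interferon and presentation genes such as PSMB8, IFI16 and BST2 were lower in FSB than in each group without the inhibitor at harvest. Of the 49 genes, 41 reached 1 FPKM in at least 3 libraries and were tested. At an unadjusted p under 0.05, 27 of them differed in FSB minus F and 28 in F_FSB minus FSB, against 51.1% and 51% of all genes. In FSB against F, 24 of the 41 fell, 0 rose and 17 did not pass (limma, Benjamini-Hochberg adjusted p under 0.05 over 13216 genes). Over all genes tested 13.4% were lower and 28.5% higher in the same comparison. In F_FSB against FSB, 23 of 41 rose, 0 fell and 18 did not pass, while 13.7% of all genes were higher and 28.2% lower. The median difference of the 41 genes was -0.71 on the log2(FPKM + 1) scale in FSB minus F and 0.77 in F_FSB minus FSB, against 0.14 and -0.13 for all genes. These comparisons share the FSB libraries, and the genes were listed with earlier results of these data known. The counts include genes that reached 1 FPKM in no FSB library, and counts without them follow. In bulk RNA, fewer cells of a kind and less RNA per cell cannot be told apart.

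The FSB libraries lay below all F libraries for 29 of the 41 genes, against 19.2% of all genes, and F_FSB above all FSB libraries for 28, against 19.2%. All 3 FSB libraries lay below all 6 others for 25 of the 41 genes, against 14.8% of all genes, and above them for 0, against 30.6% of all genes. The filter on low values needs a remark, because 7 genes (HLA-F, PSMB9, NLRC5, IFIT2, ISG20, IFI44 and IFI44L) reached 1 FPKM in no FSB library and entered the test only through the other groups. Without them, 19 of 34 genes fell in FSB against F and 18 rose in F_FSB against FSB. Of these 34, 28 had a promoter window. Among them 8 of 14 genes with ISRE letters and 7 of 14 without them fell in FSB, as did 6 of 7 with GAS letters and 9 of 21 without them, shares that were not tested against each other. The split over all genes depended on scaling between libraries. With median-ratio scaling 2424 genes were higher and 2461 lower in FSB than in F, against 3763 and 1773 with the deposited values, and for F_FSB minus FSB they numbered 2505 and 2524, against 1805 and 3722. With that scaling 26 of the 41 genes fell in FSB and 27 rose in F_FSB, and 0 moved the other way.

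Leukocyte markers were low. Of the 10, only CD68 was tested, and it did not pass (limma, adjusted p = 0.477 in FSB minus F and 0.0781 in F_FSB minus FSB). The sum over the 10 markers was 4.77 to 15.3 FPKM in F_FSB, 3.25 to 3.95 in FSB and 4.04 to 8.76 in F. The highest of them was CD68, a lysosomal membrane protein, at 3.17 to 13.1 FPKM, and 4 to 7 of the 10 were listed at 0 in any 1 library. PTPRC, the common leukocyte antigen CD45, did not exceed 0.0671 FPKM, and TYROBP was listed at 0 in all 9. The 8 endothelial markers summed to 4.8 to 10.5 FPKM in F_FSB, 6.36 to 7.59 in FSB and 8.19 to 14.8 in F, and the highest of their values was 7.83 FPKM, for EMCN in F replicate 3. Of the 5 tested, CDH5 and TIE1 were higher and TEK and EMCN lower in FSB than in F, and the reverse held in F_FSB minus FSB. CDH5 and TIE1 reached 1 FPKM only in FSB libraries, and TEK, EMCN and ERG only outside FSB. Each thus entered the test only through libraries where it was high, and these directions are not read as a result. Over all genes 28.5% were higher and 13.4% lower in FSB than in F. CDH5, the junction protein VE-cadherin and named after its values were seen, averaged 0.208 ± 0.0790 FPKM in F_FSB, 3.43 ± 0.451 in FSB and 0.143 ± 0.0822 in F. The part of these cells in the results was not tested.

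**Figure D1:**
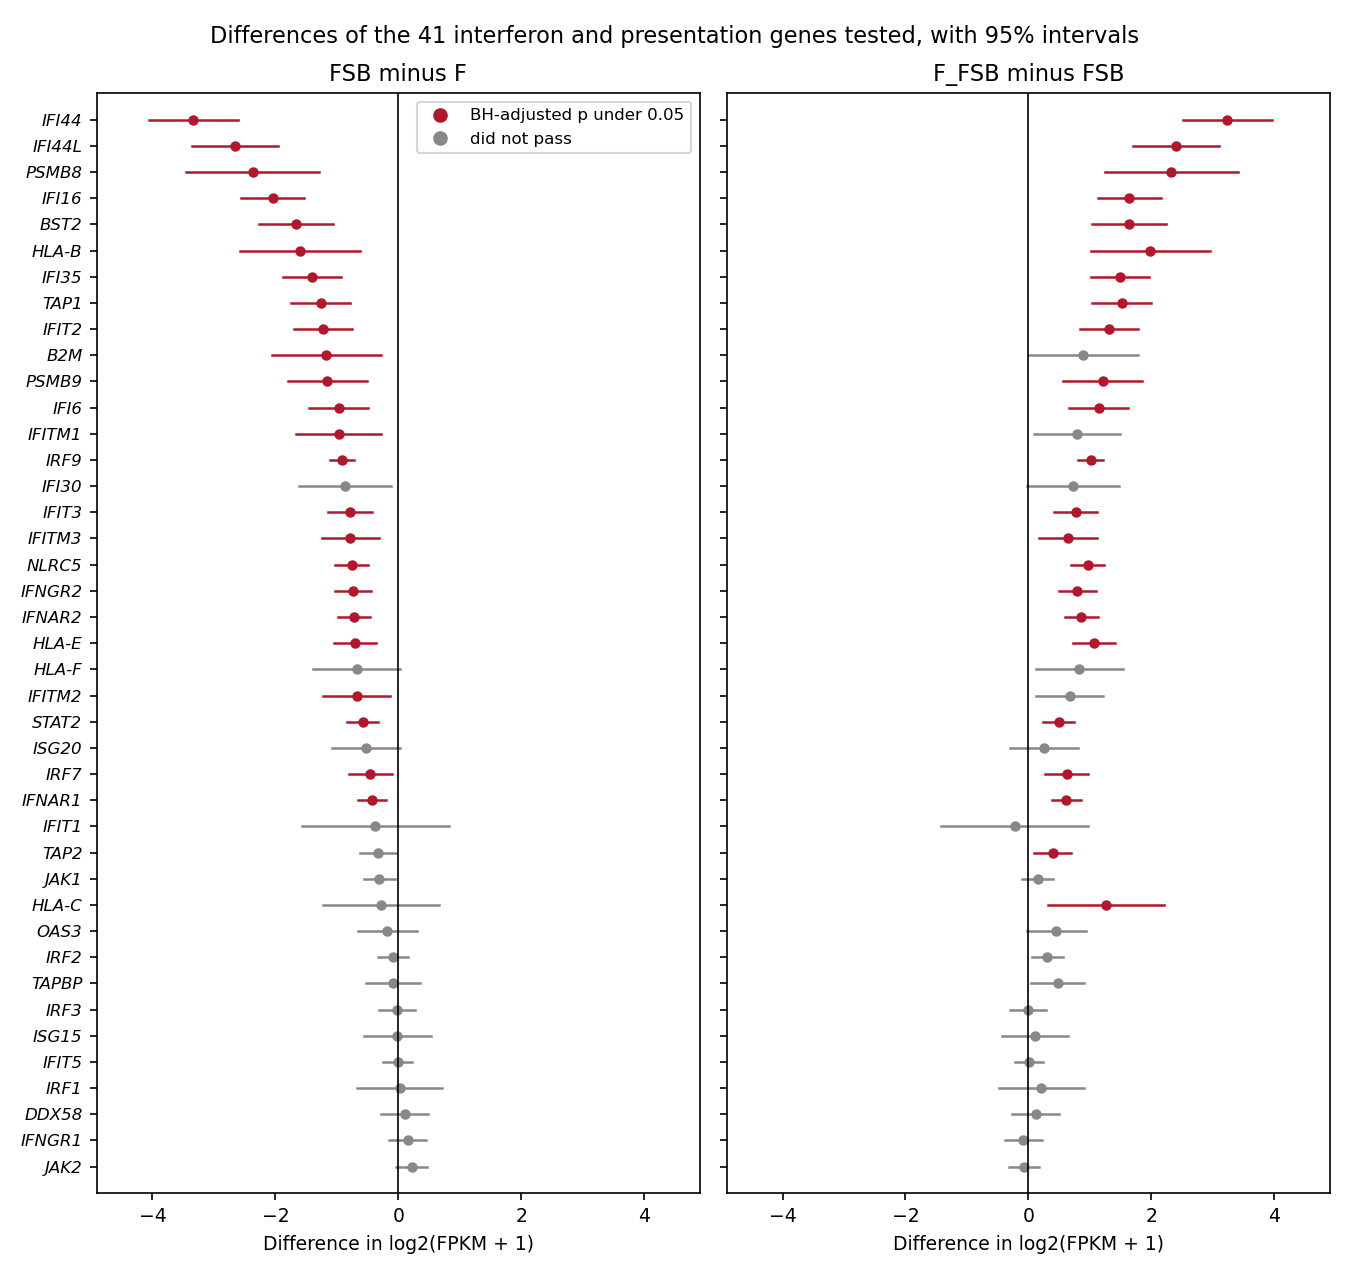
Difference in log2(FPKM + 1) for each of the 41 genes tested, FSB minus F on the left and F_FSB minus FSB on the right, with 95% intervals. Red points passed the threshold: 24 on the left, all below 0, and 23 on the right, all above 0.

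Among the class I chains, HLA-B and HLA-E fell in FSB and rose in F_FSB. HLA-B (chromosome 6, 31321649 to 31324989 on GRCh37), a classical peptide-presenting chain, had 73.3, 27.8 and 77.4 FPKM in F_FSB, 14.7, 16.3 and 9.06 in FSB, and 56.3, 43.9 and 28.5 in F. Each FSB library was below every other library. The log2 difference was -1.60 in FSB minus F (SE 0.42, limma, adjusted p = 0.0176) and 1.98 in F_FSB minus FSB (adjusted p = 0.00699). The call in FSB minus F was lost without F replicate 1 (-1.38, adjusted p = 0.0537), F replicate 2 (-1.56, 0.0504) or FSB replicate 3 (-1.36, 0.0587).

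HLA-E (chromosome 6, 30457183 to 30461982), a non-classical chain recognised by natural killer cells, had 46.1, 44.7 and 44.3 FPKM in F_FSB, 17.9, 18.9 and 27.2 in FSB, and 38.2, 35.1 and 31.9 in F. The 3 groups did not overlap at all, with F_FSB highest and FSB lowest. It differed by -0.71 in FSB minus F and by 1.07 in F_FSB minus FSB (SE 0.15 each, limma, adjusted p = 0.00685 and 0.00122). HLA-C (chromosome 6, 31236529 to 31239855), a classical chain, behaved less evenly, with 94.8, 56.0 and 102 FPKM in F_FSB, 28.3, 33.4 and 39.6 in FSB, and 76.8, 38.8 and 22.7 in F. The F libraries spanned the FSB range. HLA-C rose by 1.26 in F_FSB over FSB (limma, adjusted p = 0.0390) and did not pass in FSB minus F, with a 95% interval of -1.23 to 0.66. Its call in F_FSB minus FSB was lost without F replicate 2 (1.26, adjusted p = 0.0541), F_FSB replicate 1 (1.15, 0.10) or replicate 3 (1.1, 0.108), without FSB replicate 1 (1.14, 0.116), 2 (1.26, 0.0951) or 3 (1.38, 0.0629), and with no filter on low values (1.26, 0.0666).

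HLA-F (chromosome 6, 29691117 to 29695073), a non-classical chain, was near the limit of the filter, with 2.97, 0.705 and 1.84 FPKM in F_FSB, 0.448, 0.425 and 0.666 in FSB, and 2.20, 1.18 and 1.03 in F. With no FSB library at 1 FPKM, HLA-F entered the test only through the other groups. Its FSB libraries were below all the others, yet neither comparison passed (limma, adjusted p = 0.106 for FSB minus F and 0.0590 for F_FSB minus FSB). Without F_FSB replicate 2, both did (-0.68, adjusted p = 0.0359, and 1.16, adjusted p = 0.00893). FSB minus F also passed with only the 2 groups compared (-0.68, adjusted p = 0.0359), and F_FSB minus FSB with a pseudocount of 0.1 (1.48, adjusted p = 0.0438). The locus overlaps HLA-F-AS1, and classical HLA chains are near-identical in parts, so reads may be divided between them.

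B2M (chromosome 15, 45003685 to 45010357), the invariant light chain, was the most abundant of the 13 presentation genes among the 49, and its value depended on a locus that lies inside it. It had 607, 224 and 617 FPKM in F_FSB, 190, 250 and 277 in FSB, and 603, 604 and 416 in F. F_FSB replicate 2 was far below the other F_FSB libraries and within the FSB range. In that library LOC100652936 (chromosome 15, 45003703 to 45008066) was at 405 FPKM, against 0.104 to 41.3 in the other 8.

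Summed, the 2 loci gave 649, 629 and 653 FPKM in F_FSB, 201, 250 and 296 in FSB, and 617, 619 and 436 in F. The sums no longer overlapped between FSB and either other group. With the deposited B2M values the difference was -1.17 in FSB minus F (limma, adjusted p = 0.0412) and 0.89 in F_FSB minus FSB (95% interval from just under 0 to 1.78, adjusted p = 0.0990). With the sum, a choice made after the values were seen, the differences were -1.16 (limma, adjusted p = 0.00235) and 1.38 (adjusted p = 0.0011). Leaving out F_FSB replicate 2 gave 1.37 in F_FSB minus FSB (adjusted p = 0.00398). The call in FSB minus F with the deposited values was lost without F replicate 1 (-1.08, adjusted p = 0.10) or 2 (-1.08, 0.109), and without FSB replicate 1 (-1.01, 0.126), 2 (-1.21, 0.0905) or 3 (-1.29, 0.0648). It was also lost with no filter on low values (-1.17, 0.0716) and with quantile normalization (-1.2, 0.058).

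**Figure D2:**
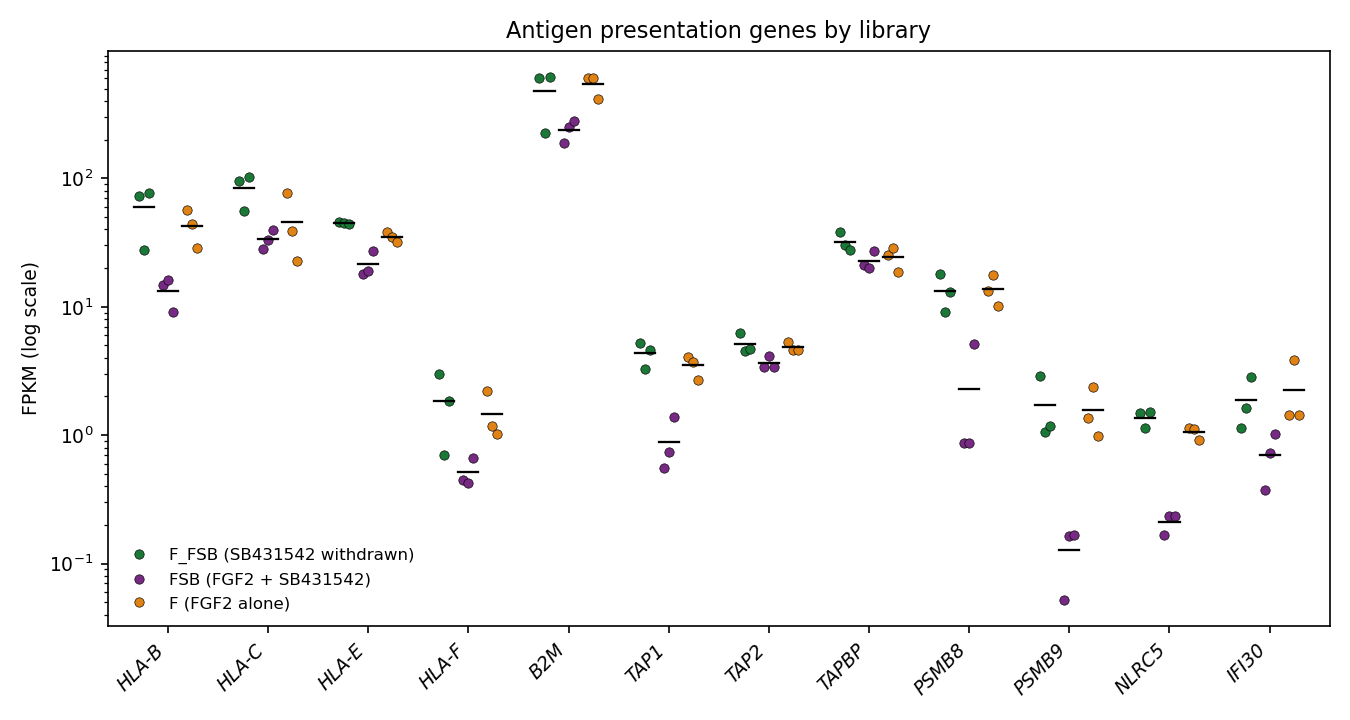
FPKM of 12 antigen presentation genes in each of the 9 libraries, on a log scale, with points for libraries and bars for group means. The FSB points of TAP1, PSMB8, PSMB9 and NLRC5 lie below every other point of the same gene, and the B2M point of F_FSB replicate 2 lies at 224 FPKM, apart from 607 and 617.

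Peptide supply genes lie next to each other on chromosome 6, in the order TAP2, PSMB8, TAP1 and PSMB9, and TAP1, PSMB8 and PSMB9 fell in FSB. TAP1 (32812986 to 32821748), a subunit of the peptide transporter, had 5.21, 3.30 and 4.62 FPKM in F_FSB, 0.552, 0.735 and 1.38 in FSB, and 4.03, 3.74 and 2.71 in F. No FSB library reached any other library. The difference was -1.26 in FSB minus F (SE 0.21, limma, adjusted p = 0.00260) and 1.52 in F_FSB minus FSB (adjusted p = 0.00117).

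TAP2 (32789610 to 32806547), the partner subunit, had 6.24, 4.49 and 4.72 FPKM in F_FSB, 3.39, 4.16 and 3.40 in FSB, and 5.34, 4.57 and 4.62 in F. FSB was again lowest, but by less. TAP2 rose by 0.40 in F_FSB over FSB (limma, adjusted p = 0.0395), and its difference of -0.33 in FSB minus F had an adjusted p of 0.0716. The call in F_FSB minus FSB was lost without F_FSB replicate 1 (0.27, adjusted p = 0.106) or 3 (0.44, 0.0541), without FSB replicate 1 (0.36, 0.118) or 3 (0.36, 0.105), and without F replicate 2 (0.40, 0.0521) or 3 (0.40, 0.0544). It was also lost with no filter on low values (0.40, 0.07) and with only the 2 groups compared (0.40, 0.0668). In FSB minus F it passed without F_FSB replicate 1 (-0.33, adjusted p = 0.0405) with only the 2 groups compared (-0.33, 0.049), and with median-ratio (-0.46, 0.0244) or quantile scaling (-0.42, 0.039).

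TAPBP (33267471 to 33282164), which encodes tapasin, had 38.1, 30.2 and 27.7 FPKM in F_FSB, 21.2, 19.9 and 27.2 in FSB, and 25.5, 28.8 and 18.8 in F. The FSB and F libraries overlapped, with a difference of -0.09 and a 95% interval of -0.52 to 0.35. F_FSB minus FSB was 0.47 (limma, adjusted p = 0.0763), and passed without F replicate 3 (0.47, adjusted p = 0.0480) and with median-ratio (0.62, 0.0295) or quantile scaling (0.59, 0.0416).

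PSMB8 (32808494 to 32812712) and PSMB9 (32821938 to 32827628) encode the inducible subunits that replace PSMB5 and PSMB6 in the immunoproteasome. PSMB8 had 18.0, 9.17 and 12.9 FPKM in F_FSB, 0.868, 0.865 and 5.17 in FSB, and 13.3, 17.6 and 10.1 in F. FSB replicate 3 stood well above the other FSB libraries and still below the other groups. The difference was -2.37 in FSB minus F and 2.32 in F_FSB minus FSB (SE 0.47 each, limma, adjusted p = 0.00554 and 0.00567). PSMB9 had 2.89, 1.06 and 1.19 FPKM in F_FSB, 0.0521, 0.163 and 0.166 in FSB, and 1.35, 2.38 and 0.979 in F. It fell by 1.15 in FSB and rose by 1.21 in F_FSB (limma, adjusted p = 0.0123 and 0.00970). PSMB9 reached 1 FPKM in no FSB library, so it entered the test only through the other groups.

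The constitutive subunits did not fall with them. PSMB5 averaged 73.1 ± 2.93 FPKM in F_FSB, 93.3 ± 7.73 in FSB and 78.6 ± 6.04 in F (SD, n = 3 each). As a percentage of PSMB5 in the same library, PSMB8 came to 25.5, 12 and 17.8% in F_FSB, 0.996, 0.848 and 5.70% in FSB, and 18.2, 22.7 and 11.9% in F. PSMB9 came to 1.88% ± 1.30 of PSMB6 in F_FSB, 0.116% ± 0.0602 in FSB and 1.88% ± 1.01 in F. The inducible subunits were thus the smaller part by FPKM in every library, and least in FSB.

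PSMB10, the inducible counterpart of PSMB7 and chosen after its values were seen, did not pass in either comparison. It averaged 6.36 ± 0.793 FPKM in F_FSB, 4.96 ± 1.71 in FSB and 5.94 ± 0.651 in F. PSMB6 averaged 95.2 ± 8.30, 109 ± 7.44 and 85.7 ± 7.15 FPKM in F_FSB, FSB and F, and PSMB7 averaged 84.9 ± 21.2, 111 ± 8.04 and 95.3 ± 5.21. Of 14 constitutive proteasome genes tested, 7 were higher and 0 lower in FSB than in F, and 0 were higher and 6 lower in F_FSB than in FSB, against 28.5% of all genes higher and 28.2% lower in the same comparisons. Their median difference of 0.35 in FSB minus F compares with 0.14 over all genes.

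**Figure D3:**
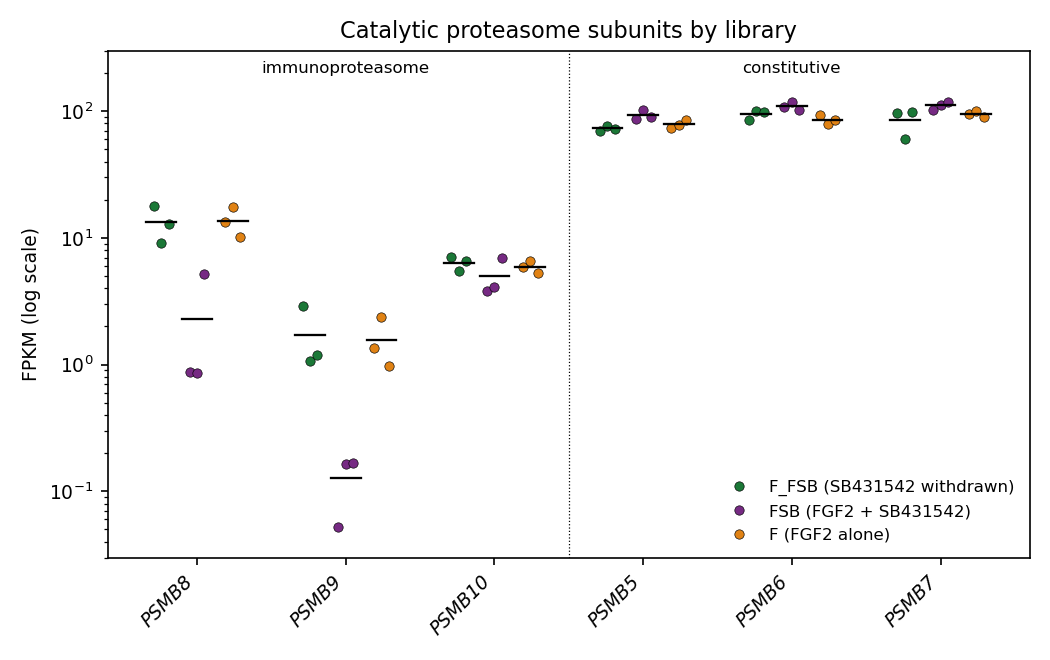
FPKM of the 3 inducible and the 3 constitutive catalytic proteasome subunits in each library, on a log scale, with bars for group means. PSMB8 and PSMB9 are lowest in FSB, at 0.865 to 5.17 and 0.0521 to 0.166 FPKM, while PSMB5, PSMB6 and PSMB7 lie between 60.5 and 119 FPKM in all 9 libraries.

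NLRC5 (chromosome 16, 57023410 to 57117436), the co-activator of class I genes, had 1.48, 1.13 and 1.51 FPKM in F_FSB, 0.166, 0.236 and 0.233 in FSB, and 1.13, 1.11 and 0.909 in F. The FSB libraries lay far below all the others. It fell by 0.76 in FSB (SE 0.12, limma, adjusted p = 0.00186) and rose by 0.96 in F_FSB (adjusted p = 0.000738). NLRC5 reached 1 FPKM in no FSB library, so it entered the test only through the other groups. CIITA, its counterpart for class II genes, was not tested, with at most 0.0336 FPKM in any library. IFI30, a lysosomal reductase of class II antigen processing, had 1.13, 1.62 and 2.86 FPKM in F_FSB, 0.372, 0.720 and 1.01 in FSB, and 1.44, 3.87 and 1.44 in F. FSB lay below the rest, but the spread was wide and neither comparison passed (limma, adjusted p = 0.0615 and 0.106). FSB minus F passed without F_FSB replicate 3 (-0.87, adjusted p = 0.0494) and with a pseudocount of 0.1 (-1.48, 0.0454), and F_FSB minus FSB without F replicate 2 (0.73, adjusted p = 0.0473).

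Of the 4 receptor chains, 3 fell in FSB and rose in F_FSB, where 13.4% of all genes fell and 13.7% rose. IFNAR1 had 14.6, 15.1 and 16.4 FPKM in F_FSB, 8.78, 10.8 and 9.47 in FSB, and 12.9, 14.8 and 12.4 in F. IFNAR2 had 9.45, 9.33 and 8.55 FPKM in F_FSB, 3.96, 5.46 and 4.35 in FSB, and 8.72, 7.43 and 8.40 in F. For both chains of the type I receptor, which lie near each other on chromosome 21 (34697214 to 34732129 and 34602231 to 34636827), the FSB libraries were below all the others. In FSB minus F, IFNAR1 differed by -0.43 and IFNAR2 by -0.72 (limma, adjusted p = 0.0106 and 0.00202). In F_FSB minus FSB they differed by 0.62 and 0.86 (limma, adjusted p = 0.00215 and 0.000993).

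The type II receptor chains parted. IFNGR2 (chromosome 21, 34775202 to 34809828), the signalling chain, had 42.6, 50.3 and 54.1 FPKM in F_FSB, 29.0, 29.5 and 24.7 in FSB, and 47.6, 40.9 and 52.6 in F. It fell by 0.74 in FSB and rose by 0.80 in F_FSB (SE 0.13 each, limma, adjusted p = 0.00315 and 0.00215). IFNGR1 (chromosome 6, 137518621 to 137540567), the ligand-binding chain, had 12.3, 14.1 and 12.2 FPKM in F_FSB, 12.1, 15.0 and 14.0 in FSB, and 11.2, 11 and 14.8 in F. All groups overlapped, and the difference in FSB minus F had a 95% interval of -0.15 to 0.45. JAK1, a kinase of both receptors, averaged 31.3 ± 2.61 FPKM in F_FSB, 28.0 ± 0.398 in FSB and 35.2 ± 4.87 in F. JAK1 differed by -0.31 in FSB minus F (limma, adjusted p = 0.0523) and passed without F replicate 1 (-0.42, adjusted p = 0.0117) or F_FSB replicate 3 (-0.31, adjusted p = 0.0495), and with median-ratio (-0.46, 0.0113) or quantile scaling (-0.46, 0.0128). JAK2, the second kinase of the type II receptor, averaged 5.12 ± 0.488, 5.43 ± 0.230 and 4.56 ± 0.634 FPKM in F_FSB, FSB and F. Its FSB libraries were all above its F libraries, 1 of 41 genes against 38.7% of all genes, and the difference of 0.22 did not pass (limma, adjusted p = 0.140).

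Of the transcription factors, STAT2, IRF9 and IRF7 fell in FSB. IRF9 (chromosome 14, 24630422 to 24635774), the DNA-binding subunit of the ISRE complex, had 12.9, 12.3 and 14.2 FPKM in F_FSB, 6.30, 5.51 and 6.24 in FSB, and 12, 13.0 and 11.7 in F. Replicates were close and the FSB libraries lay far from the rest. The difference was -0.92 in FSB minus F and 1.01 in F_FSB minus FSB (SE 0.09 each, limma, adjusted p = 0.000259 and 0.000209). STAT2 (chromosome 12, 56735381 to 56754037), its partner, had 24.8, 21.4 and 23.8 FPKM in F_FSB, 15.7, 14.3 and 19.2 in FSB, and 24.5, 25.9 and 24 in F. It fell by 0.58 in FSB and rose by 0.49 in F_FSB (limma, adjusted p = 0.00473 and 0.00902).

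IRF7 (chromosome 11, 612555 to 615999), an inducer of type I interferon genes, had 3.25, 2.31 and 3.39 FPKM in F_FSB, 1.74, 1.73 and 1.27 in FSB, and 2.07, 2.71 and 2.84 in F. FSB was lowest without overlap. It rose by 0.62 in F_FSB (limma, adjusted p = 0.0124) and differed by -0.46 in FSB minus F (adjusted p = 0.0423), a call lost without F replicate 2 (-0.42, 0.112) or 3 (-0.39, 0.120), F_FSB replicate 1 (-0.46, 0.0549), or FSB replicate 1 (-0.50, 0.0739), 2 (-0.50, 0.0777) or 3 (-0.37, 0.124). It was also lost with no filter on low values (-0.46, 0.0745) and with quantile normalization (-0.48, 0.0577).

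IRF1, IRF2 and IRF3 did not pass in any comparison. IRF1, an activator that interferon-γ induces, had 3.86, 3.00 and 1.67 FPKM in F_FSB, 1.47, 1.88 and 3.73 in FSB, and 2.71, 2.43 and 1.53 in F. The groups overlapped and FSB replicate 3 was near the top, with a 95% interval of -0.67 to 0.71 in FSB minus F. IRF3, the constitutive factor that RNA and DNA sensors activate, averaged 15.2 ± 2.31, 15.2 ± 1.31 and 15.6 ± 1.74 FPKM in F_FSB, FSB and F, with an interval of -0.32 to 0.27. IRF2, mainly a repressor, averaged 10.1 ± 0.648, 7.98 ± 0.489 and 8.59 ± 1.22 FPKM. IRF2 differed by 0.31 in F_FSB minus FSB (limma, adjusted p = 0.0516) and passed without F replicate 1 (0.31, adjusted p = 0.0252) or 2 (0.31, adjusted p = 0.0439), with only the 2 groups compared (0.31, 0.035), and with median-ratio (0.45, 0.0152) or quantile scaling (0.44, 0.016).

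The cytosolic RNA sensors differed in level. DDX58, which encodes RIG-I, averaged 3.97 ± 0.617 FPKM in F_FSB, 3.59 ± 0.704 in FSB and 3.27 ± 0.705 in F and did not pass, with an interval of -0.28 to 0.49 in FSB minus F. IFIH1, which encodes MDA5, was too low to be tested, with 0.888, 0.673 and 0.637 FPKM in F_FSB, 0.0137, 0.0570 and 0.218 in FSB, and 0.624, 0.372 and 0.257 in F. Its FSB libraries were below all the others.

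**Figure D4:**
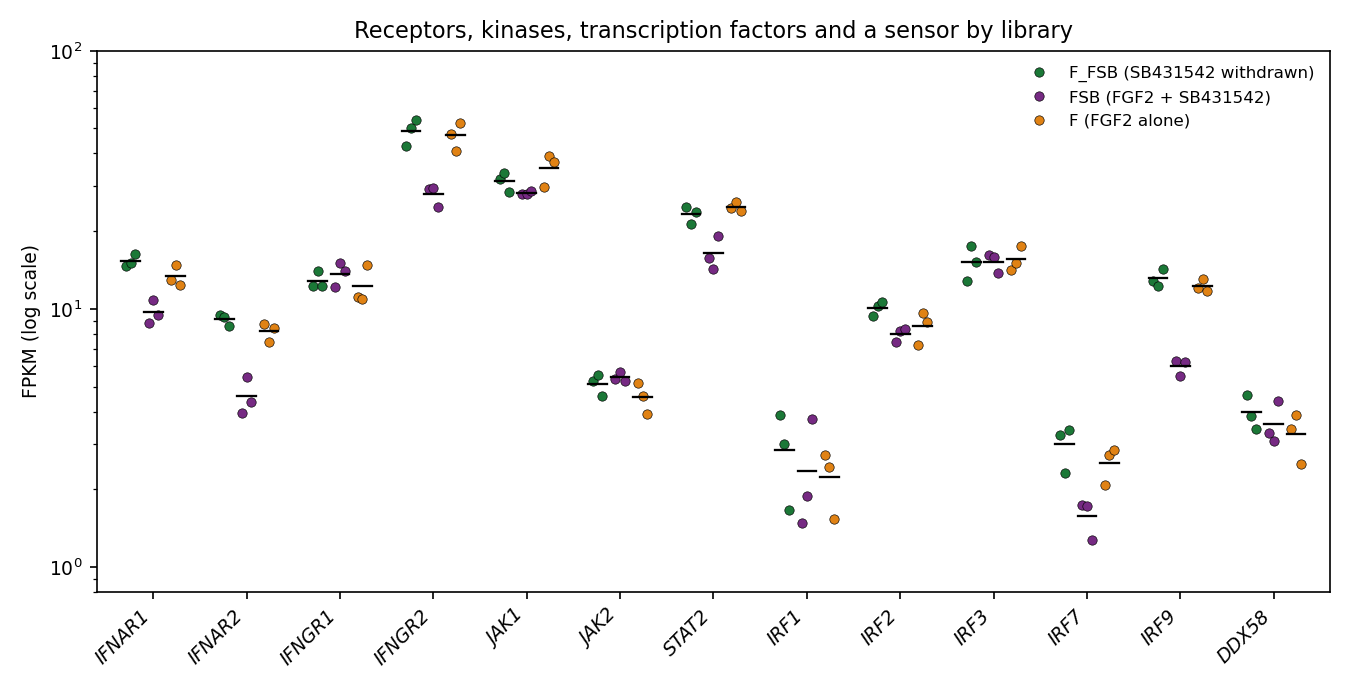
FPKM of the 13 tested receptors, kinases, transcription factors and RNA sensor in each library, on a log scale, with bars for group means. IFNAR1, IFNAR2, IFNGR2, STAT2, IRF7 and IRF9 have all FSB points below the others, while the points of IFNGR1, IRF1, IRF3 and DDX58 overlap between groups.

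The IFI genes, named for their induction by interferon, included the 2 largest differences among the 41 genes, those of IFI44 and IFI44L. Of the 5 tested, IFI44 and IFI44L entered the test only through the libraries outside FSB, and they and IFI16, IFI35 and IFI6 fell in FSB and rose in F_FSB. In the same comparisons 13.4% of all genes fell and 13.7% rose. IFI44 (chromosome 1, 79115477 to 79129763) had 9.35, 11.2 and 5.59 FPKM in F_FSB, was listed at 0 in all 3 FSB libraries, and had 12, 5.22 and 11.7 in F. Its neighbour and paralog IFI44L (79086088 to 79111830) had 5.76, 5.58 and 2.45 FPKM in F_FSB, 0, 0.00809 and 0.0329 in FSB, and 6.44, 3.38 and 7.01 in F. Both were thus detected in every library without the inhibitor at harvest and at or near 0 in FSB.

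On the log2(FPKM + 1) scale IFI44 differed by -3.34 in FSB minus F and 3.24 in F_FSB minus FSB (limma, adjusted p = 0.000265 and 0.000317), and IFI44L by -2.66 and 2.40 (adjusted p = 0.000578 and 0.000861). No ratio is given because of the zeros. Across the tables, 10 loci were listed at 0 in 1 library and at 10 FPKM or more in all others, so a listed 0 need not be an absence.

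IFI16 (chromosome 1, 158979682 to 159024945), a nuclear DNA sensor, had 50.1, 72.8 and 57.9 FPKM in F_FSB, 15.9, 17.9 and 21.8 in FSB, and 57.7, 101 and 84.7 in F. It fell by 2.05 in FSB and rose by 1.64 in F_FSB (SE 0.22 each, limma, adjusted p = 0.000477 and 0.00111). IFI35 (chromosome 17, 41158742 to 41166476) had 4.27, 6.36 and 5.61 FPKM in F_FSB, 1.05, 1.18 and 1.56 in FSB, and 4.25, 7.04 and 4.08 in F. Again no FSB library reached the range of the other groups. IFI35 differed by -1.41 and 1.49 in the same comparisons (limma, adjusted p = 0.00147 and 0.00113). IFI6 (chromosome 1, 27992572 to 27998724), a mitochondrial protein that limits cell death, had 20.0, 23.8 and 26.6 FPKM in F_FSB, 7.94, 9.42 and 13.4 in FSB, and 23.2, 23.3 and 16.2 in F, with differences of -0.97 and 1.14 (limma, adjusted p = 0.00740 and 0.00355). IFI27 was not tested, at 0.167 to 0.687 FPKM over all libraries.

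The IFIT genes, whose products bind viral RNA or work with those that do, lie side by side on chromosome 10 and did not move as a unit. IFIT2 (91061706 to 91069033) had 2.84, 2.99 and 1.95 FPKM in F_FSB, 0.187, 0.362 and 0.823 in FSB, and 2.19, 2.99 and 1.94 in F. IFIT3 (91087602 to 91100725) had 4.61, 5.68 and 4.30 FPKM in F_FSB, 1.92, 2.32 and 3.16 in FSB, and 4.34, 5.05 and 5.38 in F. Both were lowest in FSB without overlap. IFIT2 fell by 1.22 and IFIT3 by 0.79 in FSB (limma, adjusted p = 0.00261 and 0.00515), and they rose by 1.31 and 0.77 in F_FSB (adjusted p = 0.00181 and 0.00531). Of these, IFIT2 reached 1 FPKM in no FSB library, so it entered the test only through the other groups.

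IFIT1 (91152322 to 91163745) had 5.97, 6.76 and 4.44 FPKM in F_FSB, 4.33, 4.47 and 15.0 in FSB, and 5.39, 18.7 and 7.11 in F. One library of FSB and one of F stood far above the rest of their groups. The 95% interval in FSB minus F ran from -1.57 to 0.82. IFIT5 (91174325 to 91180759) had 7.01, 7.70 and 6.86 FPKM in F_FSB, 6.30, 7.21 and 7.95 in FSB, and 7.31, 7.76 and 6.57 in F. All groups overlapped closely, with an interval of -0.25 to 0.22 in FSB minus F and -0.22 to 0.24 in F_FSB minus FSB.

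The IFITM genes and BST2 encode membrane proteins that block virus entry or release. BST2 (chromosome 19, 17513755 to 17516384), which encodes tetherin, had 11.8, 6.00 and 11.8 FPKM in F_FSB, 1.97, 2.12 and 3.11 in FSB, and 10.6, 11.2 and 7.62 in F. It fell by 1.66 in FSB and rose by 1.64 in F_FSB (SE 0.26 each, limma, adjusted p = 0.00199 and 0.00204). IFITM3 (chromosome 11, 319673 to 320914) was among the highest of the 49 genes, with 486, 505 and 741 FPKM in F_FSB, 318, 347 and 430 in FSB, and 551, 695 and 631 in F. Its FSB libraries were below all the others, by a smaller step than in BST2. IFITM3 fell by 0.78 in FSB (limma, adjusted p = 0.0164) and rose by 0.64 in F_FSB (adjusted p = 0.0339). The call in FSB minus F was lost without F replicate 2 (-0.70, adjusted p = 0.0562), or of the FSB libraries replicate 1 (-0.69, 0.0619) or 2 (-0.75, 0.0574). That in F_FSB minus FSB was lost without F replicate 3 (0.64, adjusted p = 0.0507), F_FSB replicate 3 (0.45, 0.0859), or FSB replicate 1 (0.55, 0.112) or 2 (0.61, 0.0984). It was also lost with no filter on low values (0.64, 0.0734), with only the 2 groups compared (0.64, 0.0604) and with quantile normalization (0.56, 0.0892).

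IFITM1 (chromosome 11, 313991 to 315272) had 47.2, 62.5 and 109 FPKM in F_FSB, 34.7, 34.7 and 50.2 in FSB, and 65.2, 95.4 and 76.1 in F. IFITM2 (308107 to 309410) had 208, 203 and 391 FPKM in F_FSB, 147, 161 and 173 in FSB, and 254, 277 and 240 in F. F_FSB replicate 3 was far above the rest of its group in both, and the FSB libraries overlapped F_FSB for IFITM1. IFITM1 fell by 0.97 and IFITM2 by 0.68 in FSB (limma, adjusted p = 0.0327 and 0.0499), while in F_FSB minus FSB they differed by 0.79 and 0.67 (adjusted p = 0.0662 and 0.0526). The IFITM1 call was lost without FSB replicate 1 (-0.88, adjusted p = 0.10) or 2 (-0.89, 0.101), and without F replicate 2 (-0.83, 0.10) or 3 (-0.99, 0.0696). The IFITM2 call was lost when any single F library (1, 2 or 3), any single FSB library (1, 2 or 3) or F_FSB replicate 1 was left out, with differences of -0.69, -0.62, -0.73, -0.62, -0.68, -0.73 and -0.68 (adjusted p = 0.0954, 0.128, 0.0838, 0.136, 0.114, 0.0814 and 0.0503). With no filter on low values neither call held (-0.97 and -0.68, adjusted p = 0.0548 and 0.0806). In F_FSB minus FSB, IFITM1 passed without F_FSB replicate 1 (1.05, adjusted p = 0.0250) and with quantile scaling (0.87, 0.0494), and IFITM2 without F_FSB replicate 1 (0.81, 0.0422), 2 (0.83, 0.0315) or 3 (0.36, 0.0475). With median-ratio scaling both passed there (0.94 and 0.82, adjusted p = 0.0446 and 0.0341). The 3 IFITM genes are close in sequence, so reads may be divided among them.

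ISG15, a ubiquitin-like modifier and a classical effector, had 17.7, 12.9 and 25.0 FPKM in F_FSB, 13.9, 15.8 and 20.8 in FSB, and 18.7, 17.7 and 14.3 in F. The groups overlapped fully, with an interval of -0.56 to 0.53 in FSB minus F. ISG20, an exonuclease, averaged 1.1 ± 0.620, 0.724 ± 0.258 and 1.5 ± 0.484 FPKM in F_FSB, FSB and F, and did not pass (limma, adjusted p = 0.116 in FSB minus F). Of the MX and OAS genes, antiviral GTPases and sensors of double-stranded RNA, OAS3 was the only one tested. It had 1.41, 2.22 and 1.06 FPKM in F_FSB, 0.568, 0.728 and 1.32 in FSB, and 0.929, 1.34 and 1.01 in F, and did not pass (limma, adjusted p = 0.525 and 0.117).

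MX1 had 0.780, 0.788 and 0.477 FPKM in F_FSB, 0.478, 0.519 and 0.381 in FSB, and 0.705, 0.486 and 0.643 in F. MX2 did not exceed 0.177 FPKM and OASL did not exceed 0.113. OAS1 and OAS2 were highest in F_FSB replicate 2, at 2.08 and 0.914 FPKM, against at most 0.744 and 0.0706 in the other 8 libraries. In that library GBP1 was at 5.30 FPKM, against 0.0547 to 3.50 elsewhere, and LYZ at 1.67 FPKM, against at most 0.0350. These genes were therefore uneven within F_FSB. F_FSB replicate 2 also had the largest sum of FPKM, 506146, against at most 395596 in the other 8 libraries. On the second principal component it scored 48.6, against -31.4 to 17 elsewhere. A link between these values was not tested.

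**Figure D5:**
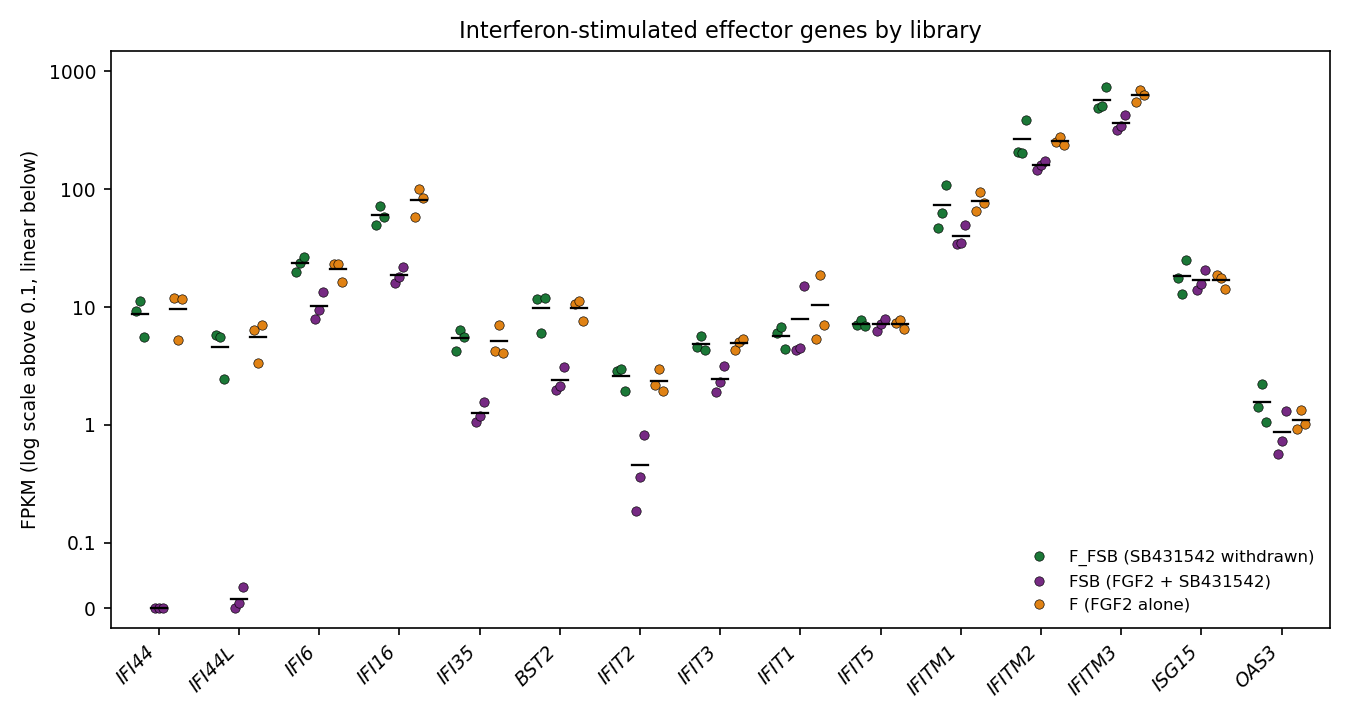
FPKM of 15 effector genes in each library, on a scale that is logarithmic above 0.1 and linear below, with bars for group means. IFI44 and IFI44L lie at or near 0 in all FSB libraries, while ISG15 and IFIT5 overlap between all 3 groups.

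By role, 7 of 12 antigen presentation genes, 6 of 13 receptors, kinases, factors and sensors, and 11 of 16 effector genes fell in FSB against F, where 13.4% of all genes fell. In F_FSB against FSB, 8 of 12, 6 of 13 and 9 of 16 rose, where 13.7% of all genes rose. Without the 7 genes that reached 1 FPKM in no FSB library, 5 of 9, 6 of 13 and 8 of 12 fell, and 6 of 9, 6 of 13 and 6 of 12 rose. Within FSB, replicate 3 was the highest of its group for 28 of the 41 genes and replicate 1 the lowest for 29. Within F, replicate 2 was highest for 23 and replicate 3 lowest for 24. Of the 24 calls in FSB minus F, 18 held in every fit that left out 1 library, and of the 23 in F_FSB minus FSB, 20 held.

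After withdrawal, none of the 41 genes passed against cells expanded without the inhibitor. In F_FSB minus F, 0 of 41 were called (limma), against 0.00757% of all genes, which is 1 gene. At an unadjusted p under 0.05, 2 of 41 differed, HLA-C and HLA-E, against 9.04% of all genes. HLA-E was higher in F_FSB by 0.36, with a 95% interval of 0.01 to 0.70, and its libraries did not overlap, 1 of 41 genes against 6.28% of all (limma, adjusted p = 0.542). HLA-C was higher by 0.98, with an interval of 0.03 to 1.92, and its libraries overlapped. The median difference of the 41 genes was 0.07. Intervals were wide for many of them, for example -1.13 to 1.04 for PSMB8 and -0.83 to 0.63 for IFI44, so differences of that size are not shown to be absent.

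Other genes of the pathway, 72 tested from 3 further lists, moved in both directions. In FSB against F, 9 rose, 18 fell and 45 did not pass, where 28.5% of all genes rose and 13.4% fell. In F_FSB against FSB, 22 rose, 8 fell and 42 did not pass, where 13.7% of all genes rose and 28.2% fell, and in F_FSB against F 0 passed. The 9 that rose in FSB became 5 with median-ratio scaling, when 23 fell, and 3, 5 or 4 without FSB replicate 1, 2 or 3. The 8 that fell in F_FSB became 5 without FSB replicate 1. Of the 72 genes, 9 reached 1 FPKM either only in FSB or only outside it, and without them 7 rose and 14 fell in FSB and 17 rose and 6 fell in F_FSB. Of 31 other interferon-stimulated genes, 2 rose and 11 fell in FSB, and 12 rose and 2 fell in F_FSB. Without the 5 of them that reached 1 FPKM only outside FSB, GBP1 and GBP3 included, 2 of 26 rose and 8 fell in FSB, and 8 rose and 2 fell in F_FSB. SP100, a nuclear body protein, averaged 24 ± 0.299 FPKM in F_FSB, 8.38 ± 1.1 in FSB and 21.3 ± 3.33 in F. It fell by 1.24 and rose by 1.42 (limma, adjusted p = 0.000340 and 0.000221).

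The guanylate-binding proteins GBP1 and GBP3 were low in FSB. GBP1 had 2.84, 5.30 and 1.95 FPKM in F_FSB, 0.147, 0.172 and 0.0547 in FSB, and 3.50, 2.69 and 2.80 in F. GBP3 averaged 3.98 ± 0.751, 0.361 ± 0.121 and 2.92 ± 0.970 FPKM in F_FSB, FSB and F. TRIM22, an antiviral ubiquitin ligase, averaged 22.0 ± 2.26, 2.89 ± 0.936 and 17.0 ± 8.55 FPKM, and rose by 2.59 in F_FSB (limma, adjusted p = 0.000812). The genes that went the other way were WARS and HERC5, of which HERC5 was named after its values were seen. WARS, the tryptophan tRNA synthetase, averaged 24.8 ± 2.01 FPKM in F_FSB, 50.4 ± 9.36 in FSB and 23.9 ± 2.41 in F. It rose by 1.04 in FSB and fell by 0.98 in F_FSB (limma, adjusted p = 0.00114 and 0.00136).

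Among 24 further signalling and sensing genes, 3 rose and 6 fell in FSB, where 28.5% of all genes rose and 13.4% fell. In F_FSB against FSB 7 rose and 2 fell, where 13.7% of all genes rose and 28.2% fell. STAT3, a factor of cytokine receptors, averaged 44.5 ± 5.34 FPKM in F_FSB, 16.8 ± 2.14 in FSB and 45.1 ± 1.26 in F, and fell by 1.38 in FSB (limma, adjusted p = 0.000162). STAT5B, a related factor, averaged 7.06 ± 0.499, 13.3 ± 0.269 and 6.78 ± 0.163 FPKM, and rose by 0.88 in FSB (adjusted p = 0.000162). SOCS3, a feedback inhibitor of JAK kinases, averaged 21.0 ± 4.12, 4.58 ± 0.564 and 20.7 ± 5.04 FPKM. TICAM1, the adaptor of the RNA sensor TLR3, averaged 3.12 ± 0.288, 1.68 ± 0.167 and 3.12 ± 0.159 FPKM, and TMEM173, which encodes the DNA-sensing adaptor STING, averaged 24.1 ± 3.39, 5.62 ± 3.67 and 20.1 ± 0.648. All 3 of these were lowest in FSB. SOCS3 rose by 1.97 in F_FSB, TMEM173 by 2.05 and TICAM1 by 0.62 (limma, adjusted p = 0.000398, 0.00174 and 0.00189).

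Of 17 other presentation genes, 4 rose and 1 fell in FSB against F, and 3 rose and 4 fell in F_FSB against FSB. With 28.5% of all genes higher in FSB and 28.2% lower in F_FSB, the 4 in each case are near the share of all genes and are not a result about the list. The one that fell in FSB was MICB, a stress-induced ligand of natural killer cells, with 10.6, 8.88 and 8.41 FPKM in F_FSB, 1.51, 2.26 and 0.963 in FSB, and 9.20, 8.07 and 4.99 in F. It differed by -1.70 and 2.02 (limma, adjusted p = 0.00128 and 0.000663). The 4 that rose in FSB were HLA-DPB1, HLA-DPA1, RFXANK and RFXAP. HLA-DPB1 and HLA-DPA1, chains of a class II molecule, reached 1 FPKM only in FSB libraries. HLA-DPB1 averaged 0.441 ± 0.235 FPKM in F_FSB, 2.08 ± 0.165 in FSB and 0.687 ± 0.133 in F, and HLA-DPA1 averaged 0.401 ± 0.230, 1.44 ± 0.356 and 0.562 ± 0.0456. RFXANK and RFXAP, subunits of the factor that binds class I and class II promoters, averaged 19.7 ± 1.83, 29.2 ± 2.12 and 19.4 ± 1.35 FPKM, and 1.29 ± 0.0610, 2.77 ± 0.270 and 1.80 ± 0.489. These 4 differed by 0.87, 0.63, 0.57 and 0.44 in FSB minus F (limma, adjusted p = 0.00282, 0.0171, 0.00271 and 0.0322). Of other genes tied to class II, named after their values were seen, CD74, HLA-DMA and RFX5 did not pass in FSB minus F (-0.66, -0.05 and 0.21, adjusted p = 0.150, 0.883 and 0.227), and HLA-DRA, HLA-DRB1, HLA-DQA1, HLA-DQB1 and HLA-DMB were too low to be tested.

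None of 12 interferon genes reached the filter. The highest single value was 0.143 FPKM, for IFNE in F_FSB replicate 3, and 6 of the 12 (IFNA1, IFNA2, IFNA5, IFNK, IFNW1 and IL29) were listed at 0 in all 9 libraries. The depth is unknown, so no detection limit is given.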

How the data were processed

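Total RNA of 9 cultures was sequenced from strand-specific SureSelect libraries, per the labels' protocols. Per the file headers, the tables the authors deposited give FPKM per gene locus in the layout of Cufflinks. Alignment and quantification tools were TopHat2 (2.0.12) and Cufflinks (2.1.1) with the build GRCh37, per the submitters' processing notes. Each library was scaled to its own fragments. Overlapping and antisense loci are uncertain, since for use of the strand in counting the setting was not given in the sources used here. No counts are given, so depth is unknown. Coordinates are 1-based on GRCh37 unless named GRCh38.p14.

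Loci with a status other than OK in any library (95) were left out. Genes at 1 FPKM or more in at least 3 libraries (13216) were analysed as log2(FPKM + 1), which understates changes of low genes, with limma 3.58.1 in R 4.3.3: a mean-variance trend, 1 fit of group means over all 9 libraries, two-sided tests and Benjamini-Hochberg adjustment over all genes tested, with a threshold of 0.05 and 95% intervals. The fit was tested on simulated data. The 3 pairs of groups were compared as F_FSB minus F, F_FSB minus FSB and FSB minus F. Alternatives were a pseudocount of 0.1, no filter, median-ratio and quantile scaling, a replicate block, loci summed by symbol, only the groups compared, each library left out and, added after seeing the data, B2M summed with its overlapping locus. Python 3.11.15 with pandas 2.3.3 and matplotlib 3.10.9 joined tables and drew figures.

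The 49 genes and the further lists were chosen with earlier results of these data known. All 49 may be named. Of each further interferon or presentation list, the 4 genes with the smallest adjusted p among those past the threshold are named per comparison, with PSMB5, PSMB6, PSMB7, SOX9, NGFR, NT5E and the highest leukocyte and endothelial markers. Other names were chosen after their values were seen.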

Additional observations from a re-analysis of the deposited data

How the results depend on the processing

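Under pseudocount 0.1, no filter, median-ratio scaling, quantile normalization, summed loci, only the groups compared and B2M summed with its overlapping locus, the 41 genes gave 21 to 26 lower calls in FSB minus F and 21 to 27 higher calls in F_FSB minus FSB, with 0 in the opposite direction. Leaving out 1 library gave 18 to 26 and 20 to 26. No call among them changed direction under any alternative. In F_FSB minus F, 1 gene of all those tested was called with the deposited values, 0 without the filter, 0 with the replicate block and 0 to 74 without 1 library, the 74 being without F replicate 1. Over all genes, FSB minus F gave 5536 calls and 3629 to 5780 without 1 library. Other listed genes higher in FSB than in F numbered 9, against 5 with median-ratio scaling and 3 to 12 without 1 library, and those lower in F_FSB than in FSB numbered 8, against 5 to 10. The cause was not tested. Same-numbered replicates correlated by -0.136 to 0.292 in their deviations from group means, and differently numbered ones by -0.23 to 0.127. The highest value, 0.292, was between F_FSB replicate 1 and F replicate 1. The numbers were not taken as pairs, and a fit with a replicate block is given as an alternative. With the replicate block, 21 of the 41 genes were lower in FSB minus F, 24 were higher in F_FSB minus FSB and 0 were called in F_FSB minus F. The block ended the calls of B2M, IFITM2 and IRF7 in FSB minus F (adjusted p = 0.0681, 0.0597 and 0.0847, limma) and of HLA-C and TAP2 in F_FSB minus FSB (0.0585 and 0.0599), and it added HLA-F, IFITM1 and IRF2 there (0.0452, 0.0378 and 0.0347). With 3 libraries a group and no counts, small changes of low genes, such as the MX and OAS genes, could not be resolved.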
